A study of Mus musculus with 10 samples.

Results

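HSP70 chaperones are ATP-driven proteins that hold and release unfolded stretches of other proteins. The 10 genes described here are Hspa8, Hspa1a, Hspa1b, Hspa2, Hspa1l, Hspa5, Hspa13, Hspa9, Hspa4 and Hspa4l, chosen by name as members of the HSP70 family. All 10 were found among the 28125 genes of the scRNA-seq matrix and among the 30670 genes of the scATAC-seq matrix, and each was followed over the 13 cell populations that both matrices hold.

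In every HSP70 cycle a J-domain protein brings the substrate and speeds ATP hydrolysis, which closes the chaperone on it, and a nucleotide exchange factor then exchanges ADP for ATP and opens it again. Hspa8 encodes the constitutive cytosolic chaperone, Hspa1a and Hspa1b the heat-inducible ones, Hspa5 that of the endoplasmic reticulum (ER), and Hspa9 that of mitochondria. Hspa2 and Hspa1l are the forms known for the male germline, Hspa2 for spermatocytes, where male mice without it are sterile, and Hspa1l for spermatids. Hspa4 and Hspa4l are larger relatives that act mainly as nucleotide exchange factors, and Hspa13 encodes a microsomal member with no substrate-binding part.

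Whole testes were the source of the nuclei, from C57BL/6J wild-type mice at 11, 17 and 25 dpp (days postpartum) and from Cre/+ and Nfya-CKO adults aged 8 weeks. In both adult genotypes a Cre cassette sits at the end of the Stra8 gene, which is active in undifferentiated and differentiating spermatogonia (SpG) and preleptotene spermatocytes (pL). In Nfya-CKO mice it removes exons 5 to 6 of floxed Nfya, the DNA-binding subunit of NF-Y, a factor that binds the letters CCAAT. Both assays were run on each pool of nuclei, and every condition has 1 library of each, so no difference below has a replicate check, and none has a p-value.

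The matrices pool all libraries into 9 germ cell populations, spermatogonia of the library labelled Nfya-CKO (SpG Nfya-CKO), Sertoli cells, other somatic cells and a population named unknown with 99 cells. The germ cell populations are undiff. SpG, diff. SpG, pL, early leptotene to zygotene (eL/L/Z), leptotene to early pachytene (L/Z/eP), middle and late pachytene (mP/lP), diplotene (D), and the spermatids, round (RS) and elongating (ES). Levels are given as mean UMIs (unique molecular identifiers) per 10000 UMIs of a cell. Brackets hold 95% counting intervals, which treat the cells of a population as having a single rate, cover counting error only, and say nothing of the spread between animals. Total UMIs ran from 30227701 to 64967271 per library, and from 743145 in unknown cells to 48075153 in mP/lP per population.

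Several features of the libraries touch all values. Of 39674 scRNA-seq barcodes, 5030 occurred in more than 1 library, against 982 of 342825 scATAC-seq barcodes. The Cre/+ library and the library labelled Nfya-CKO shared 3813, or 74.0% of the barcodes of the latter. Of the 491 cells of SpG Nfya-CKO, 175 carried a barcode that was also a Cre/+ cell (35.6%), and cells with a barcode in more than 1 library made up 32.5% of undiff. SpG, 49.1% of diff. SpG, 59.7% of ES and 70.1% of other somatic cells. The populations cannot be recomputed without these cells, since the matrices hold only pooled values, so the part of these barcodes in the results was not tested. Nfya RNA was 1.11 in SpG Nfya-CKO and 0.456 in undiff. SpG, so its level does not check the label, and the counting does not show which exons were read. Undiff. SpG were 92.0% juvenile cells, diff. SpG 84.5% Cre/+ cells, Sertoli cells 87.8% from 11 dpp, and 78.8% of other somatic cells came from the library labelled Nfya-CKO. Of pL 99.7% were juvenile cells, of mP/lP 70.7% came from 25 dpp, and of ES 99.6% were Cre/+ cells. Stage therefore cannot be fully told apart from library and age along the germline. Spermatid RNA was also found outside spermatids, since Prm1, which packs sperm DNA, was 40.8 in ES, 3.94 in diff. SpG and 1.54 in other somatic cells.

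The members lie apart in the genome except for the Hspa1 genes. In GRCm38.p6, the assembly of mm10, Hspa8 spans chr9:40801276-40805202, Hspa2 chr12:76403812-76406938 and Hspa5 chr2:34772090-34776529. The exchange factors Hspa4 and Hspa4l span chr11:53259814-53300479 and chr3:40744500-40796103, and Hspa13 spans chr16:75755190-75767276.

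Promoter sequence was taken from RefSeq for the 7 members with an entry (all but Hspa8, Hspa9 and Hspa13), 250 bases before to 50 after the start (GRCm38.p6). That start lies 558 bases inside the span given above for Hspa2 and 1113 inside that for Hspa4l, both of which have a transcript that begins further upstream, and at the end of the span for the other 5. The letters CCAAT, read on both strands, occurred in 5 of these 7 and in 37.4% of all 32851 promoters. Hspa5 held 4 matches, and 1.06% of all promoters held at least as many. The first of them, ATTGG at position -214 from the start, lies before the stretch printed below. Hspa1a, Hspa1b, Hspa1l and Hspa2 held 1 each. Hspa4 and Hspa4l held none. The stretches below are shown because the Nfya deletion bears on CCAAT. They are printed 5′ to 3′ on the strand of the gene up to the base before that start, and capitals mark CCAAT or its reverse ATTGG, as well as CCACG in Hspa5 and GAANNTTC in Hspa1a.
Hspa5, chr2:34771890-34772089, plus strand: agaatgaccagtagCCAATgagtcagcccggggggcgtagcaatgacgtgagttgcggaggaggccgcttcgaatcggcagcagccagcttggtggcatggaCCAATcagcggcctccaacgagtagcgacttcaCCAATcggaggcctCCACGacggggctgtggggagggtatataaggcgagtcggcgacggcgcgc
Hspa2, chr12:76404290-76404369, plus strand: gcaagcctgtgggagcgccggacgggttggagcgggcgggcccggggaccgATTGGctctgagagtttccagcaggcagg
Hspa1a, chr17:34972157-34972356, minus strand: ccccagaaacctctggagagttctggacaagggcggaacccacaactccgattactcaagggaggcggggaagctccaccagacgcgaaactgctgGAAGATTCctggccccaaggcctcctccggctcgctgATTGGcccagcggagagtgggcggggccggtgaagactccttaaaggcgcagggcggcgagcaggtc
Hspa1l, chr17:34972553-34972702, plus strand: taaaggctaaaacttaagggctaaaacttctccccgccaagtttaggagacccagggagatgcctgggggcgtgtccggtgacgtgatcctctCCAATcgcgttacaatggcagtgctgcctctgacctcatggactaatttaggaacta

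In Hspa5, the last CCAAT begins at position -65 from the start and is followed after 9 bases by CCACG. That arrangement is the ER stress element, to which NF-Y and ATF6 bind together. A search for it on both strands, added after the data were seen, found it in Hspa5 alone among the 7 members and in 0.119% of all promoters, where CCACG by itself, also in Hspa5 alone of the 7, was in 32.8%. In Hspa1a and Hspa1b, GAANNTTC, the core of a heat shock element, began at position -104 and a reversed CCAAT at -67. GAANNTTC occurred in 7.86% of all promoters, and TTCNNGAA, found in 8.52%, was in none of the 7. The Hspa1a and Hspa1b windows differed at 4 of 300 positions. GGGCGG, the letters bound by Sp factors, was in 6 of the 7 and in 35.7% of all promoters, and TATAAA was in none and in 13.6%. A match of letters is a description and not a bound site.

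The constitutive chaperone Hspa8 was highest in undiff. SpG, at 5.54 (5.39 to 5.70), followed by pL, at 5.201 (5.07 to 5.33), with intervals that do not overlap. It was lower at each later step to the round spermatid, at 3.47 in eL/L/Z, 2.03 in L/Z/eP, 1.24 in mP/lP, 0.942 in D and 0.429 in RS. In ES it was 0.765. Diff. SpG, at 1.71 (1.59 to 1.84), did not lie between their neighbours undiff. SpG and pL. Sertoli cells had 4.55, other somatic cells 1.94 and SpG Nfya-CKO 1.34 (1.26 to 1.43). Only uniquely mapped reads were counted, and 28.1% of the windows of 71 bases (the length of the RNA read) in Hspa8 exons occur once in the genome, with up to 7 copies of the others, so reads from most of the gene were left out of its level. The same share was 44.9% for Hspa1a and 43.2% for Hspa1b, 92.4% for Hspa1l, and 97.4% or more for the other 6.

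The heat-inducible pair was highest outside the control germ cells. Hspa1a ran from 0.0245 in mP/lP to 0.239 (0.208 to 0.274) in undiff. SpG among germ cells, and was 0.342 in Sertoli cells, 0.427 in other somatic cells and 0.338 (0.299 to 0.381) in SpG Nfya-CKO. Hspa1b ran from 0.0280 in L/Z/eP to 0.173 in pL among germ cells, and was 0.2202 in Sertoli cells, 0.301 in other somatic cells and 0.246 in SpG Nfya-CKO. Its highest level, 0.652 (0.364 to 1.08) in unknown cells, rests on about 14.9 UMIs. Among germ cells both genes were thus at their lowest around early to late pachytene. Of the Hspa1a windows, 53.6% are shared with Hspa1b, so reads from these stretches were not counted for either gene. Immediate early genes were measured beside this pair. The summed level of 12 such genes, Fos and Jun among them, was 24.1 in undiff. SpG, 2.32 in mP/lP, 2.94 in RS, 11.96 in SpG Nfya-CKO, 48.0 in Sertoli cells and 37.1 in other somatic cells. Jund alone made 17.0 of the sum in undiff. SpG and 4.10 of that in SpG Nfya-CKO. Without it, a sum added after the data were seen, the other 11 genes had 7.10 in undiff. SpG, 2.63 in diff. SpG, 3.99 in pL and 7.85 in SpG Nfya-CKO. Cells were freed with enzymes before nuclei were taken, and the part of that step in these levels was not tested.

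Hspa2 had its peak in meiosis. Its level was 0.547 in undiff. SpG, 1.95 in diff. SpG, 0.485 (0.446 to 0.525) in pL, 2.09 in eL/L/Z and 3.86 in L/Z/eP. Its peak was 7.43 (7.33 to 7.53) at the mP/lP stage, followed by 3.77 in D, 2.65 in RS and 3.27 in ES. Its intervals overlapped between L/Z/eP and D, and between undiff. SpG and pL. Outside control germ cells it was 0.412 in Sertoli cells, 2.03 in other somatic cells and 0.0643 (0.0478 to 0.0847) in SpG Nfya-CKO, the lowest of the 13 populations. Piwil1, a pachytene marker, was 11.4 in mP/lP, 1.76 in diff. SpG, 1.57 in other somatic cells, 0.0771 in Sertoli cells and 0.255 in SpG Nfya-CKO. The part of spermatocyte RNA in the Hspa2 levels of diff. SpG and other somatic cells was not tested.

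Hspa1l was a spermatid gene. It was 0.0229 (0.0152 to 0.0331) in pL, 0.0503 in eL/L/Z, 0.0854 in L/Z/eP, 0.193 in mP/lP and 0.674 in D. It then reached 1.58 (1.52 to 1.65) in RS and 8.18 (7.83 to 8.55) in ES, so that each of these steps was an increase beyond counting error. Spermatogonia had 0.0877 (undiff. SpG), 0.417 (0.359 to 0.482, diff. SpG) and 0.162 (SpG Nfya-CKO), Sertoli cells 0.0763 and other somatic cells 0.283. The summed level of 4 of 4 elongating spermatid markers (Prm1, Prm2, Tnp1, Tnp2) was 118 in ES, 9.88 in diff. SpG, 4.77 in other somatic cells, 0.103 in SpG Nfya-CKO and 0.0108 in Sertoli cells. The Hspa1l level in diff. SpG and other somatic cells thus stood beside spermatid RNA, whose part in it was not tested. In SpG Nfya-CKO, 5 Leydig markers summed to 49.3, against 0.208 in undiff. SpG, and the part of somatic RNA in its Hspa1l level was not tested.

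**Figure D1:**
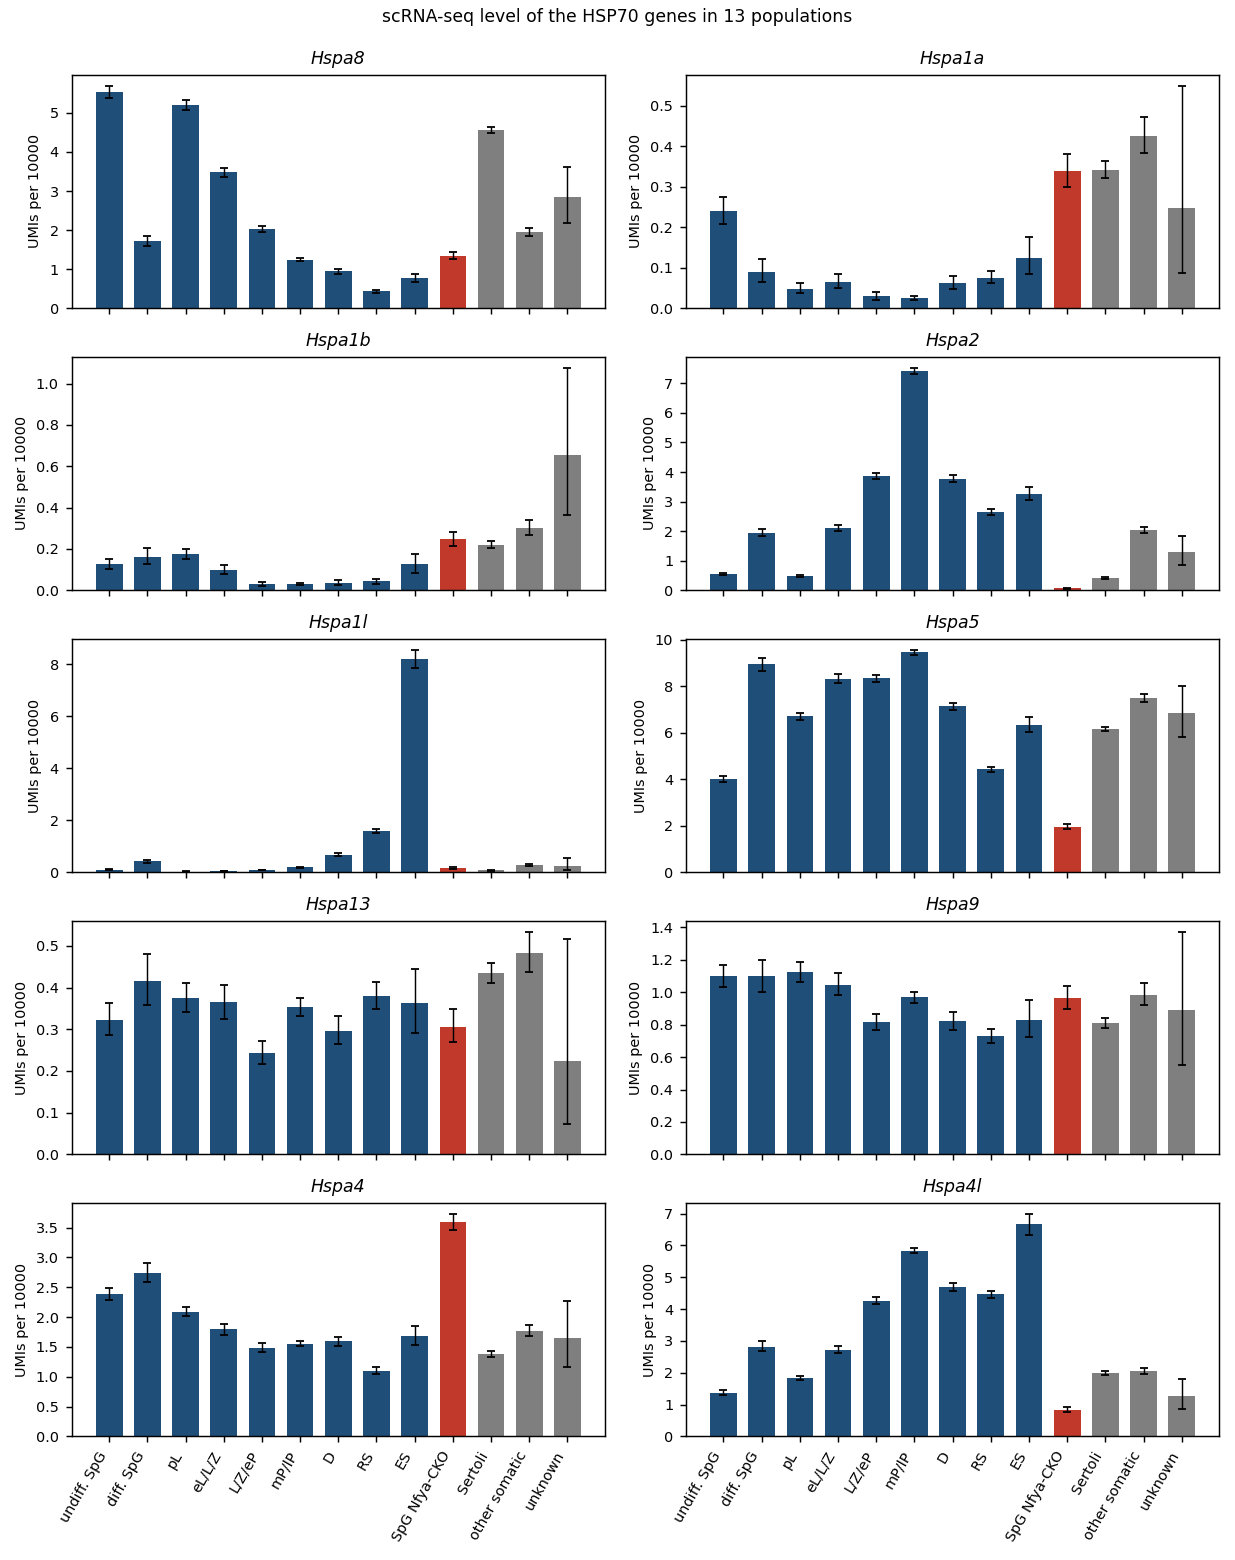
Mean UMIs per 10000 (vertical axes, each from 0 and each with its own range) of the 10 HSP70 genes in 13 populations. Bars are the pooled level and whiskers the 95% counting interval, with control germ cells in blue, SpG Nfya-CKO in red and the others in grey. Hspa2 peaks in mP/lP at 7.43 and Hspa1l in ES at 8.18, while Hspa8 is highest in undiff. SpG at 5.54.

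**Figure D2:**
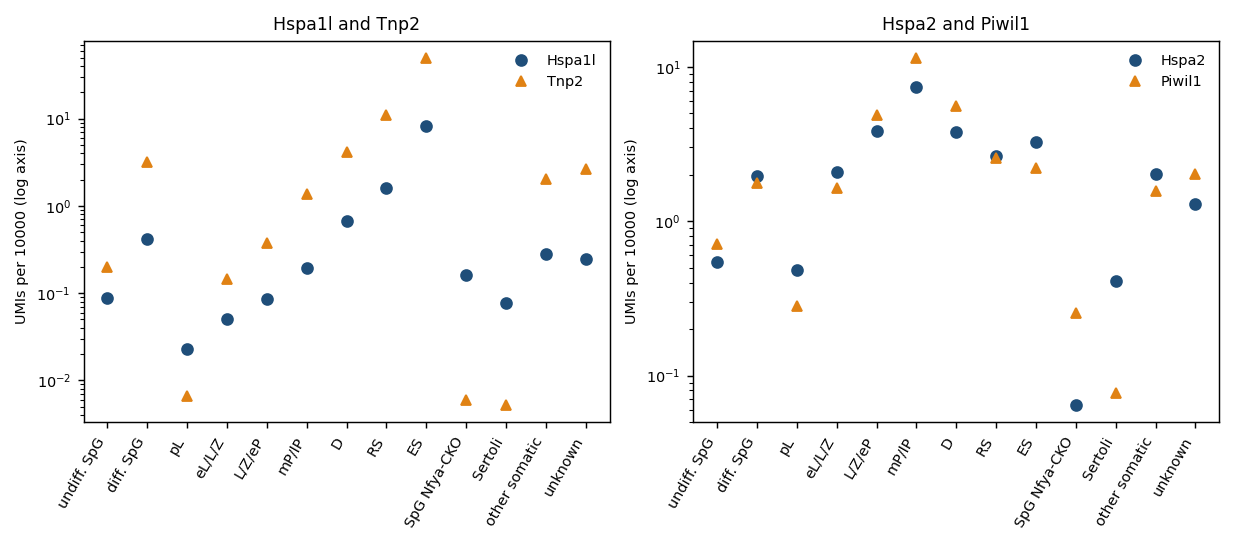
Mean UMIs per 10000 (log axes) of Hspa1l beside the spermatid gene Tnp2 (left) and of Hspa2 beside the pachytene gene Piwil1 (right) in 13 populations, with circles for the HSP70 gene and triangles for the marker. Tnp2 is 3.21 in diff. SpG and 0.00605 in SpG Nfya-CKO, where Hspa1l is 0.417 and 0.162, and levels are to be compared within a gene.

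In the ER, Hspa5, also known as BiP, was lowest in SpG Nfya-CKO and highest in mP/lP. It was 3.996 (3.87 to 4.13) in undiff. SpG, 8.93 in diff. SpG, 6.69 in pL, 8.32 in eL/L/Z and 8.33 in L/Z/eP. Next came 9.45 (9.34 to 9.56) in mP/lP, 7.13 in D, 4.43 in RS and 6.34 in ES, with overlapping intervals of eL/L/Z and L/Z/eP. Sertoli cells had 6.14 and other somatic cells 7.48. SpG Nfya-CKO, at 1.95 (1.86 to 2.05), stood below all other populations. Hspa13 showed little variation, from 0.243 in L/Z/eP to 0.416 in diff. SpG among germ cells, and each population overlapped the next in order of level. Somatic levels were 0.434 in Sertoli cells and 0.484 (0.438 to 0.533) in other somatic cells.

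The mitochondrial Hspa9 (chr18:34937414-34954351) was also flat, from 0.728 (0.684 to 0.774) in RS to 1.12 (1.07 to 1.19) in pL among germ cells, 0.809 in Sertoli cells and 0.966 in SpG Nfya-CKO. Only RS stood apart from the population next to it in order.

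The exchange factors Hspa4 and Hspa4l had their highest control germ cell levels in diff. SpG and in ES. Hspa4 was at 2.39 in undiff. SpG, 2.75 in diff. SpG and 2.09 in pL, and between 1.10 (RS) and 1.79 (eL/L/Z) in later control germ cells. Its highest level, 3.59 (3.46 to 3.73), was in SpG Nfya-CKO. Hspa4l was 1.37 in undiff. SpG, 2.83 in diff. SpG, 1.83 in pL, 2.72 in eL/L/Z and 4.26 in L/Z/eP. Later stages had 5.84 (mP/lP), 4.70 in D, 4.47 in RS and 6.66 (6.34 to 6.99) in ES. Its lowest level, 0.845 (0.782 to 0.912), was in SpG Nfya-CKO. Over the 9 germ cell populations, the Pearson correlation of log values was 0.90 between Hspa4l and Hspa2, -0.67 between Hspa4l and Hspa4, and -0.89 between Hspa4l and Hspa8. These are descriptions over pooled populations that share libraries and depth.

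The range of each member along the germline was read beside that of all genes. The ratio of the highest to the lowest germ cell population, after adding 0.1, had a median of 3.37 over the 10067 genes whose mean germ cell level was 0.2 or more, and of 3.49 over the 8 members above that limit (all but Hspa1a and Hspa1b). Over all 10 members, the low pair included, the median was 2.55. It was 67.4 for Hspa1l, 12.9 for Hspa2, 10.7 for Hspa8 and 4.61 for Hspa4l, and between 1.48 and 2.72 for the other 6.

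For the comparisons that follow, ratios were taken after adding 0.1, and genes whose mean over the pair of populations was under 0.05 were left out. Members at least 2-fold apart are called higher or lower by size alone. From pL to mP/lP, 9 of 10 members passed the filter, Hspa1a being too low. Of these, 3 were higher, where 18.1% of all genes were: Hspa2 by 3.69 on the log2 scale, Hspa4l by 1.62 and Hspa1l by 1.25. The call of Hspa1l rests on the 0.1 added, since its log2 ratio was 0.22 after adding 1 and 2.63 after adding 0.01. Also, 2 were lower, where 22.0% of all genes were, Hspa8 at -1.98 and Hspa1b at -1.08. The call of Hspa1b rests on it too, at -0.19 after adding 1 and -2.24 after adding 0.01, and on the scaling, at -0.83 relative to the median of all genes. The higher pachytene levels of Hspa2 and Hspa4l thus stood beside a lower level of the constitutive Hspa8.

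From mP/lP to RS, 8 members passed the filter. Hspa1l was higher by 2.52 (22.0% of all genes were higher), and Hspa2 at -1.46, Hspa8 at -1.34 and Hspa5 at -1.08 were lower (9.81% of all genes). After adding 1, Hspa8 was at -0.65 and Hspa5 at -0.94, and relative to the median of all genes Hspa5 was at -0.98, so that these calls ended. From RS to ES, all 10 passed, and Hspa1l was higher by 2.30 (10% of all genes), with no member lower (11.3%). The other 9 lay between -0.06 (Hspa13) and 0.71 (Hspa8). The early response list was higher in ES too, with 10 of 12 genes at least 2-fold above RS. The summed level of the 5 Sertoli markers was 3.68 in RS and 35.9 in ES, of which Clu alone made 2.90 and 31.3. That of the 5 Leydig markers was 0.786 and 5.70, and the part of somatic RNA in the ES levels was not tested.

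Between Sertoli cells and undiff. SpG no member was 2-fold apart, where 12.1% of all genes were higher and 20.2% lower. The extremes were Hspa4 at -0.75 and Hspa5 at 0.61. The median of all genes in this comparison was -0.34, and relative to it Hspa5 was 0.95 and Hspa4 -0.41. Defining markers followed the labels, with Sox9 at 10.7 in Sertoli cells and 0.531 in undiff. SpG, and Zbtb16 at 0.571 and 8.74.

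The deletion of Nfya was addressed by comparing SpG Nfya-CKO with control spermatogonia, and the choice of control mattered. Against undiff. SpG, Hspa2 at -1.98 and Hspa8 at -1.97 were lower, 2 of 10 members where 3.40% of 13954 genes were. The value of Hspa2, whose levels were 0.0643 and 0.547, was -2.91 after adding 0.01 and -0.54 after adding 1, which ends its call. No member was 2-fold higher, where 4.76% of genes were. Hspa5 lay at the limit, with a ratio of 0.501 after adding 0.1 and a level of 1.95 against 3.996. It passed the limit at -1.03 after adding 0.01, at -1.035 relative to the median of all genes and at -1.004 without mitochondrial genes. After adding 1, Hspa5 was at -0.76. Hspa4l was lower by less, at -0.63, and Hspa4 (0.57), Hspa1b (0.62) and Hspa1a (0.37) were on the higher side. Hspa9 and Hspa13 differed by -0.17 and -0.06, with counting errors (SE) of 0.06 and 0.10.

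Against diff. SpG, Hspa2 at -3.64, Hspa5 at -2.14 and Hspa4l at -1.63 were lower (10.9% of all genes) and Hspa1a at 1.21 was higher (7.44%). Hspa8 was at -0.33 there, since its level in diff. SpG was itself low. Against pL, Hspa8 at -1.88, Hspa2 at -1.83, Hspa5 at -1.73 and Hspa4l at -1.03 were lower (5.37%), and Hspa1a at 1.57 and Hspa1l at 1.09 were higher (11.0%). In sign, Hspa2, Hspa5, Hspa4l, Hspa8, Hspa9 and Hspa13 were below all 3 controls (Hspa9 reaching -0.20 and Hspa13 -0.34), and Hspa4, Hspa1a and Hspa1b above, while Hspa1l was above undiff. SpG and pL and below diff. SpG. With 1 added in place of 0.1, tried after the data were seen, Hspa2, Hspa5 and Hspa4l were still 2-fold lower than in diff. SpG, and Hspa8 and Hspa5 than in pL, while Hspa1a was at 0.30 and 0.35, Hspa1l at 0.18 against pL, and Hspa2 at -0.48 and Hspa4l at -0.62 against pL. With 0.01 added, Hspa1l was also lower than in diff. SpG, at -1.31. The 3 comparisons share SpG Nfya-CKO and are not independent of each other.

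RNA of other cells stood beside these differences. Elongating spermatid markers summed to 9.88 in diff. SpG, 0.511 in undiff. SpG, 0.0149 in pL and 0.103 in SpG Nfya-CKO, and 3 of 3 spermatocyte markers to 14.0, 7.13, 10.2 and 7.20. Their part in the differences from diff. SpG was not tested. The germ cell markers Ddx4 and Dazl summed to 9.08 in SpG Nfya-CKO, 16.4 in undiff. SpG, 16.2 in diff. SpG and 20.2 in pL. Markers of undiff. SpG summed to 16.4, 15.7, 6.19 and 4.64 in the same order. The part of these differences in the member levels was not tested. Against diff. SpG, 6 of the 12 early response genes were higher in SpG Nfya-CKO (7.44% of all genes), with Egr1 at 2.43 and Fos at 1.70, and against pL 2 were higher and Jund was lower, and their part in the higher Hspa1a was not tested. The summed level of 5 of 5 Leydig markers was 49.3 in SpG Nfya-CKO, 0.208 in undiff. SpG and 218 in other somatic cells, with Insl3 at 39.8, 0.0640 and 177. The summed level of 5 of 5 Sertoli markers was 24.4, 3.70 and 98.5, most of it Clu. Hspa1a and Hspa1b were also higher in other somatic cells than in control spermatogonia, and the part of somatic RNA in their level in SpG Nfya-CKO was not tested. For the members that were lower, other somatic cells had 2.03 of Hspa2, 1.94 of Hspa8 and 7.48 of Hspa5, each above the level in SpG Nfya-CKO, and the part of somatic RNA in these levels was not tested either. Mitochondrial UMIs made up on average 0.392% of the UMIs of a cell in SpG Nfya-CKO, the lowest share of the 13 populations, 0.953% in undiff. SpG and 0.979% in both diff. SpG and pL, and the part of this share in the RNA differences was not tested. Median depth was 18361 UMIs per cell in SpG Nfya-CKO and 9290 in undiff. SpG, and the genotype and the library cannot be told apart. Nor can the age and the Cre cassette against undiff. SpG and pL, which were mainly cells of wild-type juveniles. Diff. SpG, in contrast, were 84.5% cells of Cre/+ adults of the same age.

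**Figure D3:**
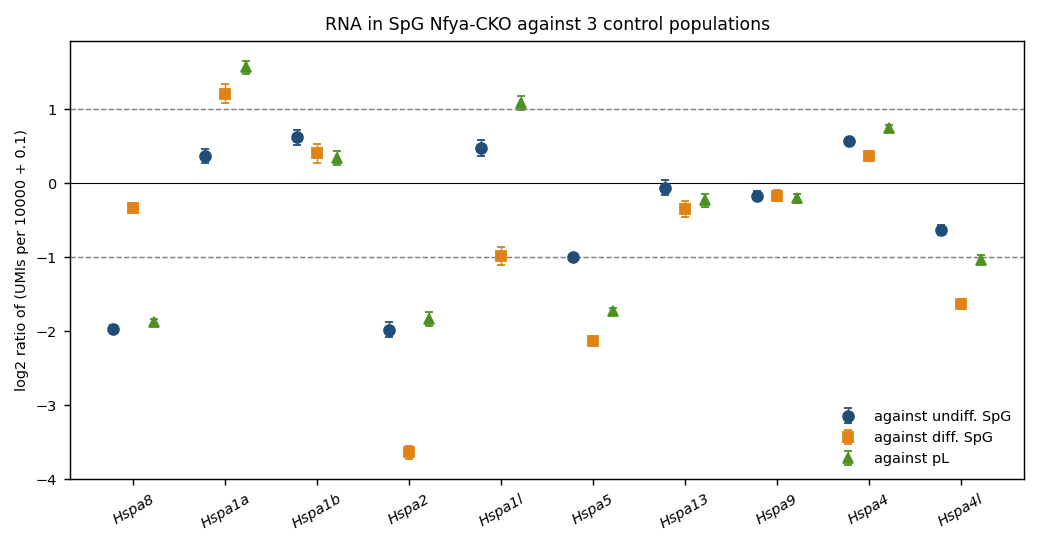
Log2 ratio of (UMIs per 10000 + 0.1) of the 10 HSP70 genes in SpG Nfya-CKO against undiff. SpG (circles), diff. SpG (squares) and pL (triangles). Whiskers are 1 counting SE and dashed lines mark 2-fold. Hspa2 lies below the lower line for all 3 controls, at -1.98, -3.64 and -1.83.

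Partners of the family were read from lists. Of the 4 HSP90 genes, 2 were lower in SpG Nfya-CKO than in undiff. SpG, where 3.40% of all genes were. These were the cytosolic Hsp90aa1 at -1.52 (2.32 against 6.83) and the ER form Hsp90b1 at -1.42 (3.48 against 9.49). Both were also lower than in diff. SpG (-1.42 and -1.68, 10.9% of all genes) and in pL (-1.42 and -1.83, 5.37%). Of 21 genes of the ER stress response, 3 were lower (3.40% of all genes) and none higher (4.76%) against undiff. SpG, the lectin chaperone Calr (-1.13), Hsp90b1 and the disulfide isomerase Pdia4 (-1.41). The list had a median of -0.44, against 0.04 for all genes. Against pL, 8 of the 21 were lower (5.37% of all genes), and against diff. SpG 7 (10.9%). None of the 25 J-domain genes, 16 exchange factors and adaptors, 3 heat shock factors or 4 other HSP70 relatives that passed the filter was 2-fold apart from undiff. SpG. Of all genes 4.76% were higher and 3.40% lower in that comparison. Hsph1 and Hyou1 count both as exchange factors and as relatives. Against the other controls some genes of these lists were 2-fold apart. Against diff. SpG, 4 of 29 J-domain genes were lower, where 10.9% of all genes were, Dnajb3 (-2.21) among them, as were Bag5 (-1.40), Hyou1 (-1.22) and Hsf5 (-1.85). These 4 J-domain genes and Bag5 had their highest levels of the 13 populations in RS or ES, and the part of the spermatid RNA of diff. SpG in their differences was not tested. Against pL, Dnaja4 (1.27) of 26 J-domain genes and Bag3 (1.09) and Bag6 (1.01) of 16 exchange factors and adaptors were higher, where 11.0% of all genes were. From the same lists, Dnajb11 (-1.16) and Hyou1 (-1.48) were lower, where 5.37% of all genes were.

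Along the germline, counts of J-domain genes are given beside the shares of all genes. Of 28 tested, 7 were higher and 3 lower in mP/lP than in pL (18.1% and 22.0% of all genes), and of 29, 7 were higher and 1 lower in RS than in mP/lP (22.0% and 9.81%). The testis form Dnajb3 was higher at both steps (2.69 and 1.23) and by 1.52 from RS to ES. Of the 16 exchange factors and adaptors, 5 were higher in ES than in RS (10% of all genes), Bag1, Bag2, Bag5, Bag6 (by 1.22) and Stub1. Bag6 encodes a chaperone cofactor known to be needed to keep HSPA2 stable in the testis. The cytosolic Hsp90aa1 was higher in mP/lP than in pL by 1.33 and Hsp90ab1 lower at -1.84, a pair of opposite differences like that of Hspa2 and Hspa8. Hsf5, a heat shock factor of spermatocytes, was higher by 2.75 and Hsf1 was at -0.58.

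For chromatin, scATAC-seq values were scaled to a sum of 1000000 over all genes of a population, and the region counted for each gene of the matrix is not given in the sources used here. The study's methods define promoter accessibility as mean coverage within 200 bases of a start in merged tracks, and do not say whether the matrix holds that measure. The ratio of the highest to the lowest germ cell population was 1.44 (Hspa2) to 3.30 (Hspa1b), with a median of 2.08 over the 10 members and of 3.51 over 28139 genes. Hspa2 was 70.7 in undiff. SpG, 97.7 in pL, 79.1 in mP/lP, 101 in RS and 70.3 in ES, so it was above 70 also in undiff. SpG and pL, where Hspa2 RNA was lowest among control germ cells. The Pearson correlation of log RNA and log scATAC value depended on the populations taken. Over all 13 it was 0.41 for Hspa2, 0.38 for Hspa4l, 0.50 for Hspa5, -0.12 for Hspa8 and 0.39 for Hspa1b (0.78 without unknown cells), and highest for Hspa1l, at 0.54. Over the 9 germ cell populations it was -0.18 for Hspa2, -0.04 for Hspa4l, 0.09 for Hspa5, -0.25 for Hspa8 and 0.60 for Hspa1l, and highest for Hspa1b, at 0.92. From 13 to 9 populations, Hspa4 went from 0.24 to 0.62, Hspa13 from 0.11 to 0.61, Hspa1a from 0.34 to 0.61 and Hspa9 from 0.10 to 0.14. The points share cells, libraries and depth. The promoter sequence of Hspa1b is nearly that of Hspa1a, and the part of this in their scATAC values was not tested. The scATAC value of ES rests on 124 paired cells.

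Several members had their lowest germ cell scATAC value in L/Z/eP, the population where 63.8% of the signal lay in mitochondrial genes. In that population Hspa8 was at 61.7, Hspa4 at 36.5, Hspa9 at 32.9 and Hspa13 at 29.1. Their highest values were 108 for Hspa8 and 70.2 for Hspa9 in diff. SpG, 87.3 for Hspa4 in pL and 59.3 for Hspa13 in ES. Hspa5 ran from 53.7 in ES to 99.6 in RS and Hspa4l from 48.3 in mP/lP to 80.8 in RS, so that both were highest in RS, where their RNA was not. The part of the mitochondrial share in the L/Z/eP values was not tested.

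The 3 Hspa1 genes lie together on chromosome 17. Hspa1a (34969359 to 34972156, minus strand) and Hspa1l (34972703 to 34979228, plus strand) start 547 bases apart and point away from each other, and Hspa1b starts 12918 bases from Hspa1a. Hspa1a and Hspa1l had nearly the same scATAC value in every population, with a ratio of 0.979 to 1.12 over the 13. Their values were 19.2 and 18.9 in undiff. SpG, 8.46 and 8.18 in L/Z/eP, and 23.9 and 24.4 in RS. Hspa1b followed another course, at 33.4 in pL, 10.1 in mP/lP, 15.5 in RS and 29.4 in Sertoli cells, and the ratio of Hspa1a to Hspa1b ran from 0.520 to 1.81. The promoter windows of Hspa1a and Hspa1b differ at only 4 of 300 positions. The part of reads that fit both genes in these scATAC values was not tested. Both RNAs were higher in ES than in L/Z/eP, as were both scATAC values, but by unlike amounts. From L/Z/eP to ES, Hspa1l RNA was 0.0854 and 8.18 and Hspa1a RNA 0.0291 and 0.123, while scATAC values went from 8.18 to 23.8 and from 8.46 to 23.3.

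**Figure D4:**
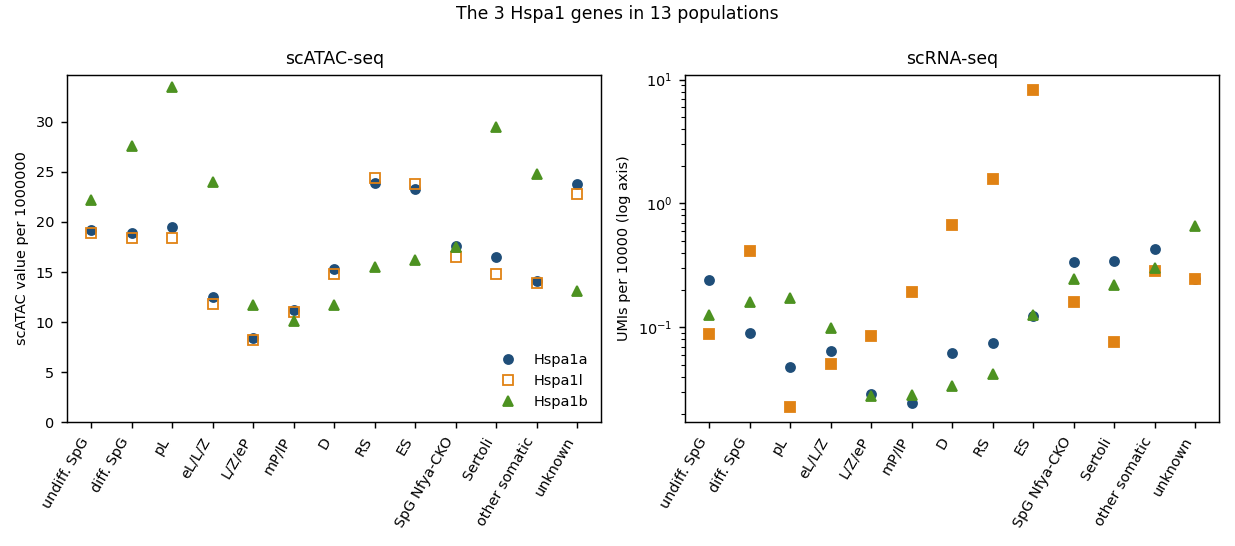
Left, scATAC value per 1000000 (axis from 0) and right, mean UMIs per 10000 (log axis) of Hspa1a (circles), Hspa1l (squares) and Hspa1b (triangles) in 13 populations. Hspa1a and Hspa1l lie nearly on top of each other on the left, with ratios of 0.979 to 1.12, and far apart on the right in ES, at 0.123 and 8.18.

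In SpG Nfya-CKO the scATAC value of all 10 members was below that of undiff. SpG, where 52.6% of 29939 genes were lower. Among the 12338 genes with a control value in the range of the members, a background added after the data were seen, 77.9% were lower, with a median ratio of 0.866. The members' median ratio was 0.805. The lowest ratios were those of Hspa5, 0.590 (35.0 against 59.3), and Hspa2, 0.612 (43.3 against 70.7), and the highest those of Hspa13 (0.920) and Hspa1a (0.916). Hspa8 was at 0.868, Hspa9 at 0.763, Hspa4 at 0.786 and Hspa4l at 0.818. Hspa4, whose RNA was highest in SpG Nfya-CKO, thus had a lower scATAC value there.

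Scaling mattered for the members near 1. Mitochondrial genes held 46.0% of the scATAC signal in SpG Nfya-CKO and 40.6% in undiff. SpG. With sums over nuclear genes only, 8 of 10 members were lower (41.3% of all genes), Hspa5 at 0.649 and Hspa2 at 0.673, and Hspa1a and Hspa13 turned to 1.01. All 10 were also lower against diff. SpG (54.7% of all genes, and 80.3% of those in the range of the members), with a median ratio of 0.532 (0.714 over the genes in that range). Over nuclear genes 7 of 10 were (44.6% of all genes). Against pL all 10 were lower (52.8% and 83.6%), with a median ratio of 0.535 (0.710 over the genes in range), and 7 of 10 over nuclear genes (38.1%). Mean TSS enrichment, the coverage at gene starts over flanking windows, was 7.99 in SpG Nfya-CKO, 12.7 in undiff. SpG, 15.1 in diff. SpG and 14.8 in pL, and its part in these ratios was not tested.

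**Figure D5:**
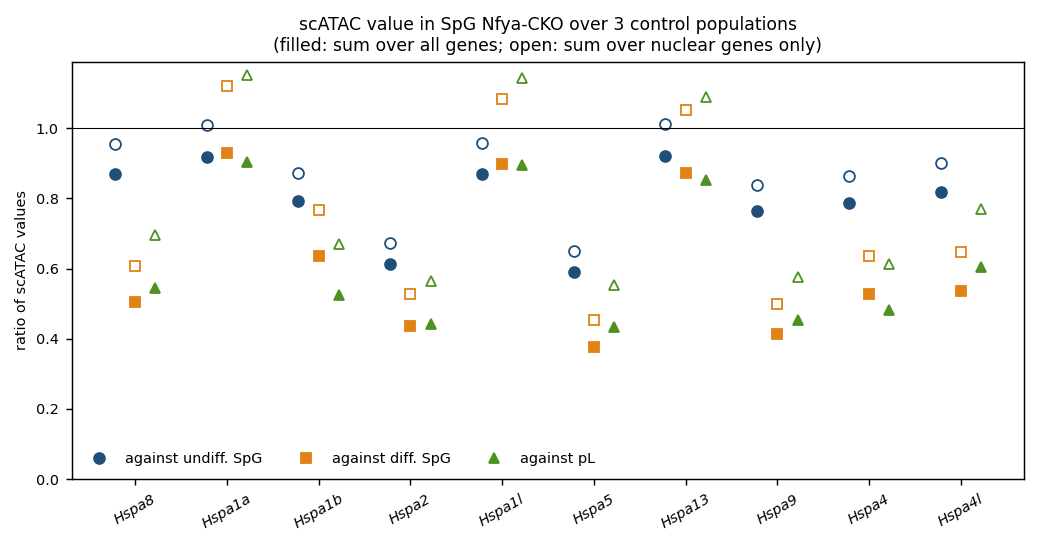
Ratio of the scATAC value in SpG Nfya-CKO to that in undiff. SpG (circles), diff. SpG (squares) and pL (triangles) for the 10 HSP70 genes, on an axis from 0. Filled points use sums over all genes and open points sums over nuclear genes only, and the line marks 1. Hspa5 and Hspa2 lie lowest against undiff. SpG, at 0.590 and 0.612, or 0.649 and 0.673 over nuclear genes.

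The genes with the most similar RNA pattern were found by the Pearson correlation of log values over the 13 populations, among the 10385 genes whose mean level was 0.2 or more. For Hspa1l these were Tex50 (0.998), H1fnt (0.998) and Abhd16b (0.996), and H1fnt is a linker histone of spermatids. For Hspa2 they were Tesmin (0.987), named for its expression in testis, a locus listed without a gene symbol (0.983) and Cers3 (0.983), a ceramide synthase. For Hspa4l they were Mns1 (0.940), Abhd8 (0.938) and Zfp654 (0.937). For Hspa5 they were Krcc1 (0.898), Ankrd40 (0.878) and Rpn2 (0.874), the last a subunit of the oligosaccharyltransferase of the ER.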

How the data were processed

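RNA and accessible chromatin of testis nuclei were profiled with BD Rhapsody in 10 samples, 5 libraries per assay. RNA reads were mapped by the authors to mm10 with STAR 2.7.10b, uniquely mapped ones being collapsed by UMI, and Seurat 5.2.1 was used to drop cells below 500 genes or from 5% of mitochondrial UMIs. Chromatin reads went through BWA 0.7.12 and ArchR 1.0.3, where a cell needed 1000 fragments and a TSS score of 4. They deposited counts of UMIs and fragments per cell, the percent of mitochondrial UMIs and the TSS enrichment ratio per cell, and 2 matrices of population means as the natural log of 1 plus the value. Doublets had been removed by the authors.

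Here the deposited natural log values were turned back with exp(value)-1, giving a sum of 10000 per population, and scATAC values were rescaled to 1000000. Counting intervals came from the UMI totals of the cells of each population. They were checked only on data simulated with a single rate per population, so the check does not cover cells whose rates differ. Groups came from the sample labels, and cells were tied to libraries by the library names in the cell tables, in which the adult control is spelled differently; 49 scRNA-seq cells without a library name were kept in the pooled values. In the cell tables, 20 further columns were not used. Median depth per library was 1446.5 to 7603 UMIs and 2481 to 5116.5 fragments per cell. With 1 library per condition no test was possible, so differences of at least 2-fold were counted by size in 5 comparisons and set beside the same count over all genes. Alternatives were the pseudocount, the filter on low means, the fold, centring, the sum without mitochondrial genes and the control population. All 10 members were named, with at most 6 genes of a list by their mean level over the 13 populations, the genes of a small count being named after their values were seen, and for Hspa1l, Hspa2, Hspa4l and Hspa5 the 3 genes most alike. Members and lists were chosen with earlier results of these data known. Unique windows and exon positions were taken from GRCm38. Python 3.11.15, numpy 2.4.6, pandas 2.3.3, scipy 1.17.1 and matplotlib 3.10.9 were used. Other experiments were not used here.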

Additional observations from a re-analysis of the deposited data

How the results depend on the processing

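No paired analysis was possible because each condition has 1 library per assay, which also leaves no replicate to take out in turn. With a pseudocount of 1 in place of 0.1, the lower members were 1 in mP/lP against pL, 1 in RS against mP/lP and 1 in SpG Nfya-CKO against undiff. SpG (Hspa8, since Hspa2 then stood at -0.54). It also left 2 higher members in mP/lP against pL, without Hspa1l (0.22). Centring on the median of all genes gave 1 lower member in mP/lP against pL. A pseudocount of 0.01 gave 2 higher members in ES against RS. A limit of 1.5-fold gave 3 higher members in ES against RS, 1 higher and 1 lower in Sertoli cells against undiff. SpG, and 1 higher and 4 lower in SpG Nfya-CKO. Against diff. SpG in place of undiff. SpG, 1 member was higher in SpG Nfya-CKO, and against pL 2 were higher and 4 lower. With sums over nuclear genes only, the scATAC ratio of Hspa1a became 1.01 and that of Hspa13 1.01. The other 56 counts stayed within 1.5 times the reported ones. Among them were 3 lower members, with Hspa5 added, in SpG Nfya-CKO against undiff. SpG with 0.01 added, with centring and without mitochondrial genes. The correlation of RNA and scATAC value changed sign from 13 to 9 populations for Hspa2 (0.41 to -0.18) and Hspa4l (0.38 to -0.04). None of the 3 genes most like Hspa1l or Hspa5 by Pearson correlation was among the 3 by Spearman correlation.

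Some levels rest on few UMIs, about 30.8 for Hspa1a in ES and 5.66 for it in unknown cells. Counting intervals leave out the spread between animals, which a single library per condition does not show. The population values pool ages and genotypes, and cells whose barcode occurs in several libraries could not be taken out of them.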
